A study of Mus musculus with 16 samples.

Results

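The naive pluripotency transcription factors Klf2, Klf4, Klf5, Esrrb, Tbx3, Tfcp2l1, Zfp42, Nr0b1, Nr5a2 and Prdm14 were read on 16 Affymetrix expression arrays of mouse embryonic stem (ES) cell RNA. They are 10 of the 18193 genes named on the array. All probe sets whose annotation gives a member, under its present or a former symbol, as the only gene were taken, which gave 24 of 45101 probe sets. A probe set is a group of short oligonucleotides that together read one transcript region, and no probe set named a member together with another gene.

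All arrays carried total RNA of ES cells of the line E14tg2a, an established line of 129 mouse origin, and no array had a treatment or a genetic change of its own. The 8 amplified arrays each started from 10 pg of this RNA, about the content of a single cell, which was turned into cDNA and amplified by PCR separately for each array. The 8 nonamplified arrays started from 5 µg of the same RNA without amplification. The arrays are technical replicates of one RNA from one line, so every error, interval and p-value measures the spread between arrays and not between cultures. In such bulk RNA, fewer cells expressing a gene and less RNA per cell cannot be told apart. The comparison asks how faithfully, and how evenly between repeats, the amplification carries each transcript.

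Naive pluripotency is the state of the epiblast before implantation, held in culture by leukaemia inhibitory factor (LIF) and by Wnt and BMP signals. Around the core factors Oct4 (Pou5f1), Sox2 and Nanog lies a layer of further transcription factors that partly replace each other and that are lost as cells move to the formative and primed states. LIF acts through Stat3 on Klf4 and Tfcp2l1, Wnt signalling relieves repression of Esrrb, Klf2 and Tfcp2l1, and Prdm14 holds down FGF signalling and de novo DNA methylation. Several of these genes are used as single-cell markers of the naive state, which is why the reading of each from the RNA of about 1 cell is of interest.

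Intensities are on the linear scale of the deposited table, whose lowest value is 1, and the number of arrays limits their precision. Median intensity was 33.9 to 36.7 on the amplified arrays and 49.8 to 53.9 on the nonamplified arrays, and 6.76% to 8.35% against 2.08% to 3.21% of all probe sets were listed at 1. The ES cell markers Pou5f1, Sox2, Sall4, Dppa5a, Tdgf1 and Utf1 read 1663 or more on all 16 arrays. Nanog read 184 to 424 on the amplified and 1695 to 1877 on the nonamplified arrays, and Lin28a read 56.6 to 152 and 1900.3 to 2054.

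Of the 24 probe sets, 20 passed the filter on dim probe sets, a mean above an intensity of about 33.7, and every one of the 10 genes kept at least 1. By limma with Benjamini-Hochberg adjustment over all 27022 probe sets tested, at a threshold of 0.05, 14 of these 20 were called different between amplified and nonamplified arrays (70%, against 57.5% of all probe sets). Higher when amplified were 4 (20%, against 24.7%), lower were 10 (50%, against 32.8%), and the other 6 were not called. Of the 10 lower, 6 had an amplified mean under the filter and passed it through the nonamplified arrays, against 45.7% of all lower calls, so the count of lower members is a description and no support for a direction. The median log2 difference, amplified minus nonamplified, was -0.87 over the 20 and -0.17 over all probe sets tested. The 2 groups of arrays did not overlap for 8 of the 20 (40%, against 33.6% of all). Calls of at least 2-fold numbered 9 among the 20, against 9338 among all 27022 probe sets tested. The 6 lower probe sets that passed the filter through the nonamplified arrays are in both of these counts, which are therefore descriptions too. In 7 of the 10 genes at least 1 probe set was called, the exceptions being Klf4, Zfp42 and Prdm14. A gene with more tested probe sets has more occasions for a call, and no such count was made over all genes.

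The scaling between arrays is not given in the sources used here, and the count in each direction moved with it. The members split into 4 higher and 10 lower as deposited, 1 and 13 after quantile normalization, 5 and 8 when arrays were centred on their medians, 5 and 9 when the brighter 50% of probe sets set the scale, and 0 and 11 when scaled on 18 hybridization control probe sets. Over all probe sets tested the shares called higher and lower were 24.7% and 32.8% as deposited, 30.5% and 29.7%, 38.1% and 22.2%, 31.4% and 26.6%, and 13.1% and 45.2% in the same order. The median log2 difference of all probe sets tested was -0.03, 0.24, 0.04 and -0.59 under these 4 other scalings. Lower as deposited and under each of them were 8 of the 20 member probe sets (40%, against 22.2% of all): both of Esrrb's that were lower, both of Nr5a2's, Tbx3 1437479_x_at and 1444594_at, Klf5 1451739_at and Tfcp2l1 1460715_x_at. The same filter was used under every scaling, so probe sets that passed it through the nonamplified arrays remain among these. This count too is a description and no support for a direction.

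**Figure D1:**
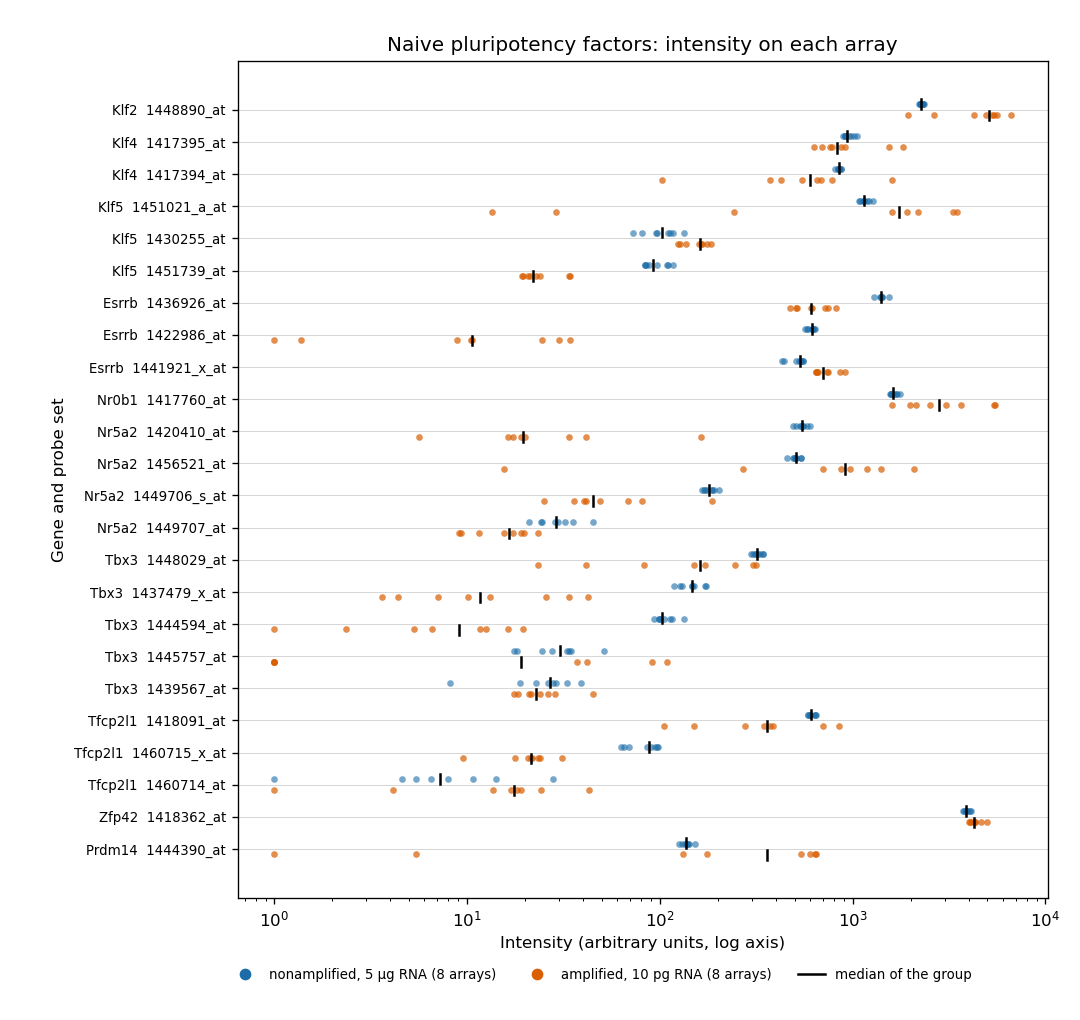
Intensity of the 24 probe sets of the 10 genes on each of the 16 arrays (log axis, arbitrary units); each point is 1 array, blue for nonamplified and orange for amplified, and a bar marks the group median. The blue points of most rows lie close together, with wide rows among the dim probe sets such as Tfcp2l1 1460714_at (1 to 27.9), and the orange points spread from 13.5 to 3477 for Klf5 1451021_a_at but only from 4028 to 4954 for Zfp42.

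The Krüppel-like zinc finger factors Klf2, Klf4 and Klf5 bind GC-rich promoter sites and can each sustain self-renewal when raised. Klf2 1448890_at read 2204 to 2347 on the nonamplified arrays, with a median of 2275. On the amplified arrays it read 1927 to 6614, with a median of 5098. Amplified replicates other than 4 and 7 read 4258 or more, replicate 7 read 2634, and replicate 4, at 1927, lay below all nonamplified arrays. The means were 2279 ± 50.9 and 4587 ± 1581 (SD, n = 8 each), and limma called Klf2 higher when amplified (log2 difference 0.91, SE 0.21, adjusted p = 0.00143). That call was lost, with the difference still positive, after quantile normalization (0.03, adjusted p = 0.891) and after scaling on the hybridization controls (0.49, adjusted p = 0.0567).

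Klf4, one of the original reprogramming factors and a target of LIF signalling, was read by 2 probe sets of similar nonamplified level. Klf4 1417394_at read 805 to 869 on the nonamplified arrays, with a median of 850.4, and 102 to 1608 on the amplified arrays, with a median of 599.8. Amplified replicate 2 gave the lowest of these values and replicate 5 the highest, so the groups overlapped. The log2 difference was -0.68 (95% interval -1.46 to 0.089) and was not called by limma (adjusted p = 0.122), but without amplified replicate 5 it was -0.91 and called (adjusted p = 0.0212). It was also called lower after quantile normalization (-1.17), on the hybridization controls (-1.10) and with weights per group (-0.68).

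Klf4 1417395_at read 892 to 1057 on the nonamplified and 628 to 1832 on the amplified arrays, with medians of 934 and 826. Here replicates 7 and 8 stood highest, at 1536 and 1832, and replicate 2 read 917. The log2 difference was -0.02 (95% interval -0.43 to 0.38, limma adjusted p = 0.924), positive under median centring (0.38) or brighter 50% scaling (0.19), and lower and called after quantile normalization (-0.66). The 2 probe sets of Klf4 thus had their extreme values on different amplified arrays.

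Klf5, which acts in the inner cell mass and trophectoderm as well as in ES cells, had in 1451021_a_at the largest amplified SD of any member on the log2(intensity + 16) scale. Klf5 1451021_a_at read 1073 to 1281 on the nonamplified arrays, with a median of 1145. On the amplified arrays it read 1905, 3324, 3477, 1593, 13.5, 28.8, 242 and 2179 for replicates 1 to 8. Replicates 5, 6 and 7 lay far below every nonamplified array and the other 5 lay above every one. The means were 1159 ± 67.0 and 1595 ± 1402 (SD, n = 8 each), the log2 difference was -0.88 with a 95% interval of -2.87 to 1.11, and limma did not call it (adjusted p = 0.447). The mean intensity was higher and the mean log2 value lower when amplified.

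The other probe sets of Klf5 were dim. Klf5 1430255_at read 72.3 to 133 on the nonamplified and 124 to 183 on the amplified arrays, and was called higher (log2 difference 0.53, limma adjusted p = 0.00103), but not after scaling on the hybridization controls (0.12) or with weights per group (adjusted p = 0.115). Klf5 1451739_at read 83.4 to 116 against 19.2 to 34.3, without overlap, and was called lower (-1.48, limma adjusted p = 3.09e-09). Neither repeated the split of 1451021_a_at: replicates 5, 6 and 7 read 159, 183 and 124 for the first and 20.8, 33.9 and 19.2 for the second.

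Esrrb, Nr0b1 and Nr5a2 are orphan nuclear receptors. Esrrb is a target of Nanog that can stand in for it in self-renewal, Nr0b1 (Dax1) is a corepressor that binds Oct4, and Nr5a2 (Lrh-1) binds regulatory regions of the Oct4 gene. Esrrb held both the deepest loss among the members and a gain. Esrrb 1422986_at read 569 to 641 on the nonamplified arrays, with a median of 615. The amplified arrays gave 34.2, 24.3, 10.5, 8.87, 30.0, 1.37, 1 and 10.6, far under every nonamplified array. The log2 difference was -4.43 (SE 0.21, limma adjusted p = 1.46e-11), the largest in size among the members tested. Its size is set by the added pseudocount, since all amplified values are dim, 5 of the 8 under the 25th percentile of their arrays: it was -5.83 with a pseudocount of 1 and -3.10 with 64, lower and called in both.

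Esrrb 1436926_at read 1292 to 1552 on the nonamplified and 474 to 819.9 on the amplified arrays, again without overlap (log2 difference -1.18, SE 0.11, limma adjusted p = 1.10e-07). Esrrb 1441921_x_at read 428 to 554 on the nonamplified and 648 to 916 on the amplified arrays, with no overlap in the other direction (0.50, SE 0.097, limma adjusted p = 0.000297). That higher call was lost after quantile normalization (0.03) and after scaling on the hybridization controls (0.08). The ending _x_at marks probes that by their sequence may also bind other transcripts, and this probe set, Tbx3 1437479_x_at and Tfcp2l1 1460715_x_at carry it.

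Nr0b1 1417760_at read 1566 to 1752 on the nonamplified arrays, with a median of 1616, and 1609 to 5453 on the amplified arrays, with a median of 2793. Amplified replicate 5 fell within the nonamplified range and the other 7 lay above it, with replicates 3 and 8 highest at 5436 and 5453. The means were 1636 ± 68.9 and 3231 ± 1507, and limma called Nr0b1 higher (log2 difference 0.84, SE 0.23, adjusted p = 0.00417). That call was lost after quantile normalization (0.04) and after scaling on the hybridization controls (0.43), with the difference positive in both.

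Nr5a2 was read by 3 tested probe sets, of which 2 were lower and 1 varied in both directions. Of the lower ones, 1420410_at passed the filter through the nonamplified arrays, so its lower call is a description. Nr5a2 1420410_at read 492 to 598 on the nonamplified and 5.59 to 163 on the amplified arrays, with medians of 545 and 19.5 and no overlap (log2 difference -3.66, SE 0.31, limma adjusted p = 2.90e-08). Amplified replicate 5 was the highest, at 163, and the other 7 read 41.5 or less. Nr5a2 1449706_s_at, whose ending marks probes shared by related transcripts, read 166 to 203 against 24.97 to 187, and only replicate 5, at 187, reached the nonamplified range (-1.44, SE 0.25, limma adjusted p = 9.15e-05).

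Nr5a2 1456521_at read 456 to 541 on the nonamplified arrays. On the amplified arrays it read 2075, 15.6, 268, 964, 1395, 872, 1183 and 705, so that 6 arrays lay above and replicates 2 and 3 below every nonamplified array. The log2 difference was 0.23 (95% interval -1.13 to 1.60), not called by limma (adjusted p = 0.782), and of the other sign after quantile normalization (-0.19) and on the hybridization controls (-0.19). Without amplified replicate 2 it was 0.84 and was called higher (adjusted p = 0.0272). A further probe set, 1449707_at, fell under the filter and read 20.9 to 44.97 against 9.07 to 23.2.

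**Figure D2:**
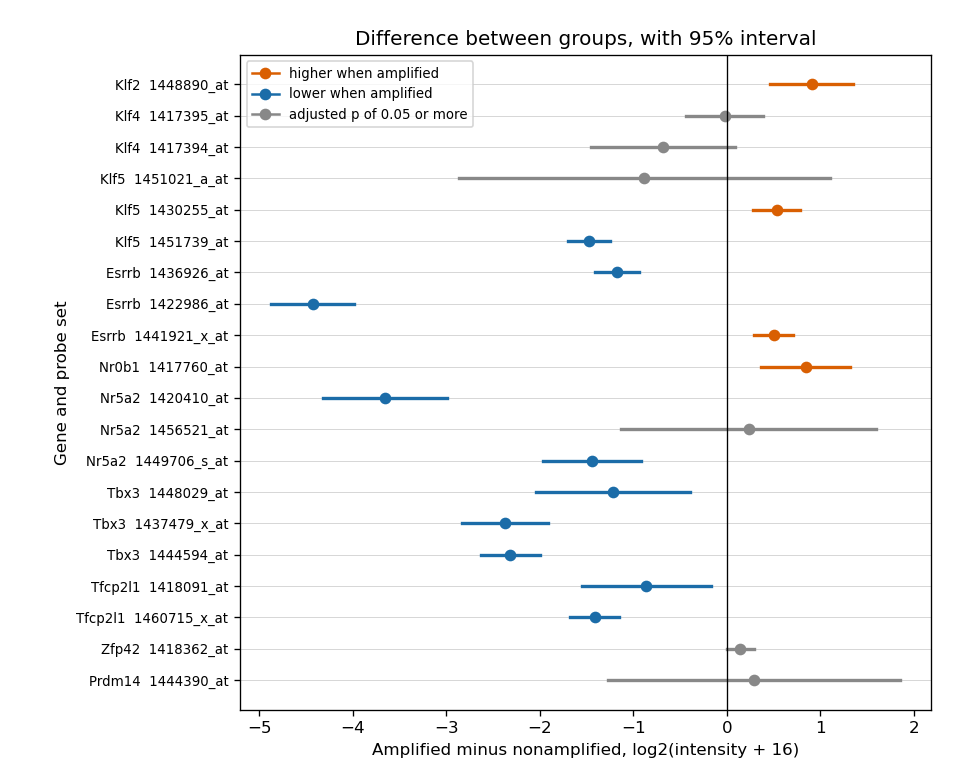
Log2 difference, amplified minus nonamplified, of each tested probe set as deposited, with its 95% interval from limma; colours mark the call. Esrrb spans from -4.43 to 0.50, and the longest intervals belong to Klf5 1451021_a_at, Prdm14 and Nr5a2 1456521_at.

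Tbx3, a T-box factor that acts downstream of phosphoinositide 3-kinase signalling, was called lower in all 3 of its tested probe sets. Of these, 1437479_x_at and 1444594_at passed the filter through the nonamplified arrays, so the count is no support for a direction. Tbx3 1448029_at read 296 to 342 on the nonamplified arrays, with a median of 318. On the amplified arrays it read 172, 23.2, 82.6, 246, 305, 313, 41.4 and 151. Replicates 5 and 6 fell within the nonamplified range and the other 6 below it (log2 difference -1.21, SE 0.39, limma adjusted p = 0.0133). Under median centring this was -0.81 and not called (adjusted p = 0.0821).

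Tbx3 1437479_x_at read 118 to 174 against 3.60 to 42.3 (log2 difference -2.38, limma adjusted p = 6.57e-08), and 1444594_at read 93.6 to 134 against 1 to 19.4 (-2.32, limma adjusted p = 7.14e-10), both without overlap. The amplified values of both lie near the table's floor, where their order has no meaning. The 2 probe sets under the filter, 1445757_at and 1439567_at, read 17.4 to 51.1 against 1 to 109 and 8.12 to 38.9 against 17.5 to 44.7. In the fit without a filter their log2 differences were -0.28 and 0.00052, neither of them called.

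Tfcp2l1, a CP2-family factor downstream of LIF and Stat3, was lower in both tested probe sets. Of these, 1460715_x_at passed the filter through the nonamplified arrays, so its lower call is a description. Tfcp2l1 1418091_at read 588 to 649 on the nonamplified arrays, with a median of 605. Amplified replicates 1 to 8 gave 104, 384, 346, 277, 372, 151, 853 and 703. Replicates 7 and 8 lay above every nonamplified array and the other 6 below. The log2 difference of -0.86 (SE 0.32, limma adjusted p = 0.0318) was not called without amplified replicate 1 (adjusted p = 0.0510), 4 (0.0514) or 6 (0.0634), nor under median centring (adjusted p = 0.245) or brighter 50% scaling (adjusted p = 0.0961). Tfcp2l1 1460715_x_at read 63.1 to 97.4 against 9.55 to 31.0, without overlap (-1.41, limma adjusted p = 4.29e-08), and the third, 1460714_at, lay under the filter at 1 to 27.9 against 1 to 43.0.

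Zfp42 (Rex1), a zinc finger protein related to Yy1 and a common reporter of the naive state, was the steadiest member on the amplified arrays. Zfp42 1418362_at had a nonamplified mean of 3912 ± 132 and an amplified mean of 4335 ± 312 (SD, n = 8 each). The amplified arrays read 4028 to 4954. The log2 difference was 0.15 (95% interval 0.0031 to 0.29), not called by limma (adjusted p = 0.0756). Its direction depended on the scaling: median centring and brighter 50% scaling gave a higher call, while it was called lower after quantile normalization (-0.71, adjusted p = 1.02e-07), and was -0.27 and not called on the hybridization controls.

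Prdm14, a PR domain zinc finger protein also needed for primordial germ cells, was read by 1 probe set. Prdm14 1444390_at read 125 to 152 on the nonamplified arrays, with a median of 137. The 8 amplified values were 644, 600.3, 636, 132, 176, 5.40, 1 and 540.5. Replicates 1, 2, 3, 5 and 8 lay above every nonamplified array, replicate 4 within their range, and replicates 6 and 7 below. The log2 difference was 0.29 (95% interval -1.27 to 1.85), not called by limma (adjusted p = 0.762), and of the other sign on the hybridization controls (-0.13).

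The same arrays were not low for every gene. Amplified replicate 7 gave 1 for Prdm14 and for Esrrb 1422986_at and also the highest amplified value of Tfcp2l1 1418091_at. Replicate 2 gave the lowest Klf4 1417394_at, Nr5a2 1456521_at and Tbx3 1448029_at, and one of the highest values of Klf2 and of Klf5 1451021_a_at. The median log2 distance of the 20 tested member probe sets from their nonamplified means ran from -1.32 on replicate 2 to -0.09 on replicate 5. Over all probe sets tested it ran from -0.16 to -0.08. A median of 20 values can move more between arrays through its small number alone, so the widths of these ranges cannot be compared. Between 8 and 11 of the 20 lay at least 2-fold below the nonamplified mean on each amplified array and 0 to 4 at least 2-fold above it, against 26.9% to 30.3% and 18.8% to 20.6% of all probe sets tested. The 6 lower member probe sets that passed the filter through the nonamplified arrays lay below on every amplified array. These counts are therefore a description and no support for a direction.

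**Figure D3:**
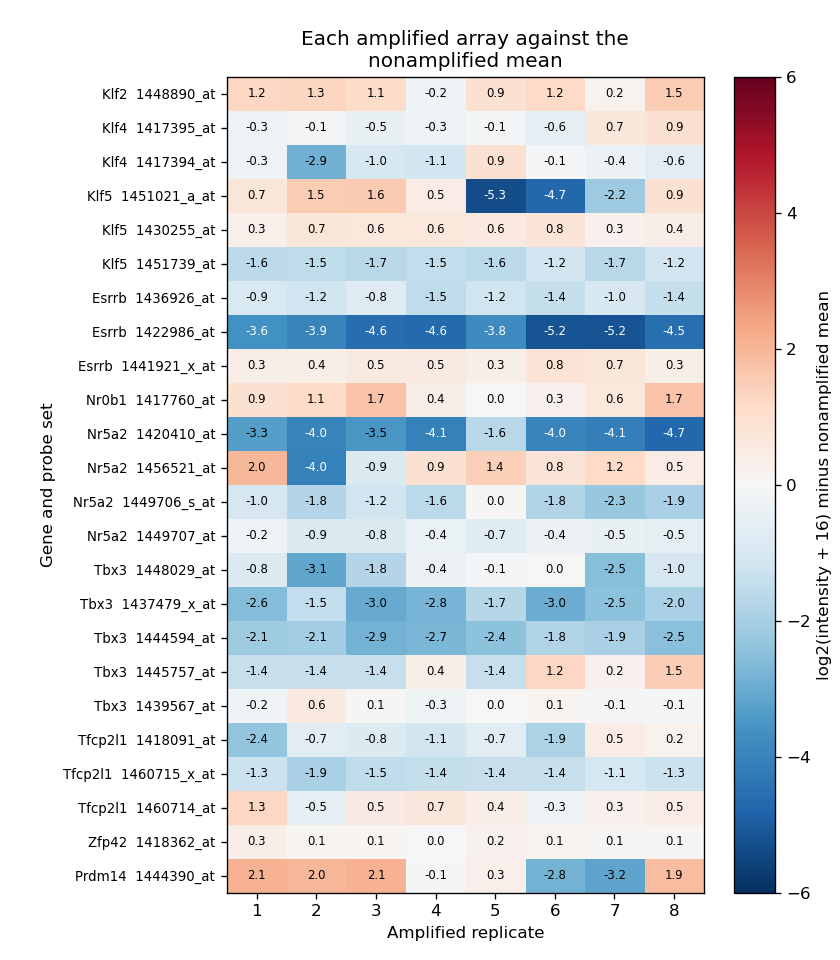
Log2 distance of each member probe set on each amplified array (columns, replicates 1 to 8) from its nonamplified mean, with blue below and red above. The deepest cells of Klf5 1451021_a_at fall on replicates 5 and 6, those of Prdm14 on 6 and 7, and those of Nr5a2 1456521_at and Klf4 1417394_at both on 2, while Esrrb 1422986_at is low on all 8.

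The spread between amplified arrays exceeded that between nonamplified arrays in 19 of the 20 tested probe sets, the exception being Klf5 1430255_at. No such count was made over all probe sets, so this one does not set the members apart. The median SD of the tested members was 0.60 on the log2 scale when amplified and 0.079 when not, and over all probe sets tested these medians were 0.51 and 0.13. The largest amplified SDs were those of Klf5 1451021_a_at (2.81) and Prdm14 (2.20), and the smallest was that of Zfp42 (0.10). In a limma fit to the distance of each array from its group median, 8 of the 20 were called wider when amplified (40%, against 30.9% of all). They were Nr0b1 (adjusted p = 0.00976), Prdm14 (0.0228), Tbx3 in all 3 tested probe sets (0.0216 to 0.0494), Esrrb 1422986_at and 1436926_at (0.0272 and 0.0368) and Tfcp2l1 1418091_at (0.0347). Esrrb 1422986_at, Tbx3 1437479_x_at and Tbx3 1444594_at passed the filter through the nonamplified arrays, and their amplified values lie near the floor. With a pseudocount of 64 they were not called wider (limma adjusted p = 0.0833, 0.275 and 0.530), so their calls are descriptions.

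Klf5 1451021_a_at, with the largest SD, was not among those called wider. Leaving out any 1 array left 1 to 5 of these calls, the fewest without amplified replicate 7. Over all probe sets the calls also fell, from 8343 to between 4796 and 6116. In groups of 7 the middle array has a distance of 0 by construction, and its part in this was not tested.

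**Figure D4:**
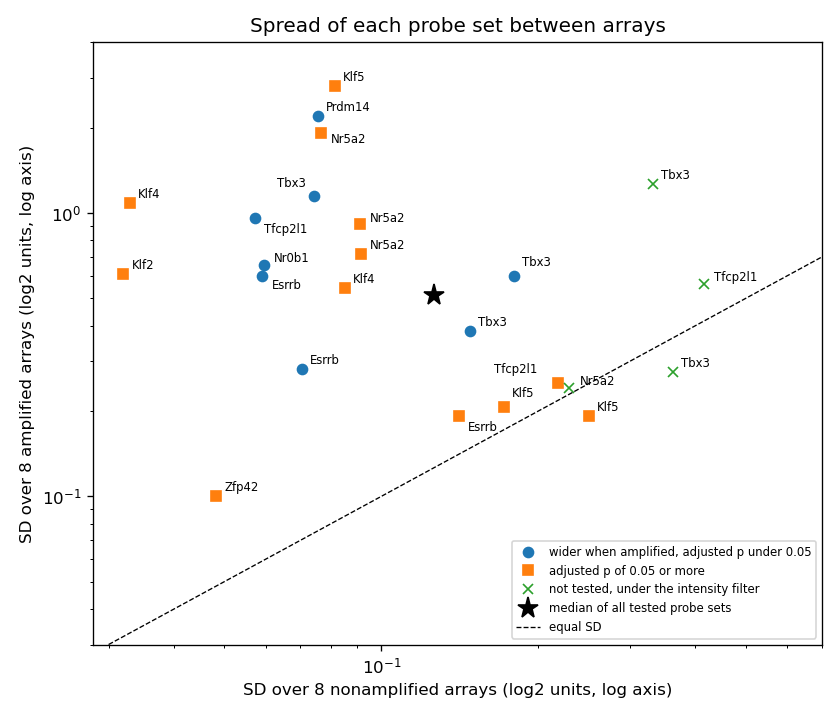
SD of log2(intensity + 16) of each member probe set over 8 nonamplified arrays (horizontal, log axis) and 8 amplified arrays (vertical, log axis). All tested members except Klf5 1430255_at lie above the dashed line of equal spread, with Klf5 1451021_a_at and Prdm14 at the top and Zfp42 at the bottom left, and the star marks the median of all probe sets tested.

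A loss was counted where a probe set in the brighter 50% by nonamplified mean read under the 25th percentile of an amplified array. It was seen on at least 1 amplified array for 6 of 20 member probe sets, against 37.8% of all such probe sets, and for 12.5% of the 160 member values against 14.5% overall. Tbx3 1444594_at was lost on 6 arrays, Tbx3 1437479_x_at and Esrrb 1422986_at on 5 each, Prdm14 on 2, and Nr5a2 1420410_at and Tfcp2l1 1460715_x_at on 1 each. Both shares of lost members lay near or below the background.

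Probe sets of one gene can read different stretches of its transcripts, and their ratio was taken within each array, as the difference of log2(intensity + 16). The added 16 makes this ratio depend somewhat on the scaling where a probe set is dim. For each of the 14 pairs of tested probe sets of one member the ratio was compared between amplified and nonamplified arrays by an exact 2-sided permutation test, with adjustment over the 14813 same-gene pairs of all genes. It differed in 7 of the 14, against 57.4% of all pairs, and did not overlap between groups in 5, against 32.9%, so neither count sets the members apart. Esrrb 1422986_at, Klf5 1451739_at and Nr5a2 1420410_at, which are in most of the called pairs, passed the filter through the nonamplified arrays. The shifts of their ratios are therefore descriptions. For Esrrb, 1422986_at over 1441921_x_at was 0.25 ± 0.19 when not amplified and -4.69 ± 0.77 when amplified (SD, n = 8 each), a shift of -4.93. The shifts of 1422986_at over 1436926_at and of 1436926_at over 1441921_x_at were -3.25 and -1.68. Each of these 3 had an exact p of 0.000155, the smallest that the permutations can give (adjusted p = 0.000472), and all 8 amplified arrays lay below all nonamplified ones. Pairs of one gene that share a probe set are not independent, and the first of these Esrrb shifts is the sum of the others.

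The same smallest p held for Klf5 1430255_at over 1451739_at, which shifted by 2.01, and for Nr5a2 1420410_at over 1449706_s_at, which shifted by -2.21. The ratio of Nr5a2 1420410_at to 1456521_at shifted by -3.89 with overlap (exact permutation adjusted p = 0.00275). That of 1449706_s_at to 1456521_at shifted by -1.68 (exact permutation adjusted p = 0.0369). Under alternatives, where adjustment was over the 14 pairs, this last call was lost after quantile normalization (adjusted p = 0.180), without any 1 nonamplified array, and without amplified replicate 1, 4, 6, 7 or 8, the adjusted p then lying between 0.0653 and 0.0845.

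The remaining 7 pairs were not called. A pseudocount of 1 called 3 of them (Tbx3 1437479_x_at and 1444594_at over 1448029_at, -2.03 and -2.35, and the Tfcp2l1 pair, 1.05), which makes 10 of 14, and quantile normalization called Klf5 1430255_at over 1451021_a_at (2.28). As reported, the Tbx3 ratios to 1448029_at shifted by -1.16 and -1.10 (exact permutation adjusted p = 0.0747 and 0.0566), and both were called without amplified replicate 2 (0.00163 and 0.00508) or 7 (0.0424 and 0.0146). The Klf4 pair was called without amplified replicate 5 (exact permutation adjusted p = 0.0356), and the Tfcp2l1 pair without amplified replicate 1 (0.0289).

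**Figure D5:**
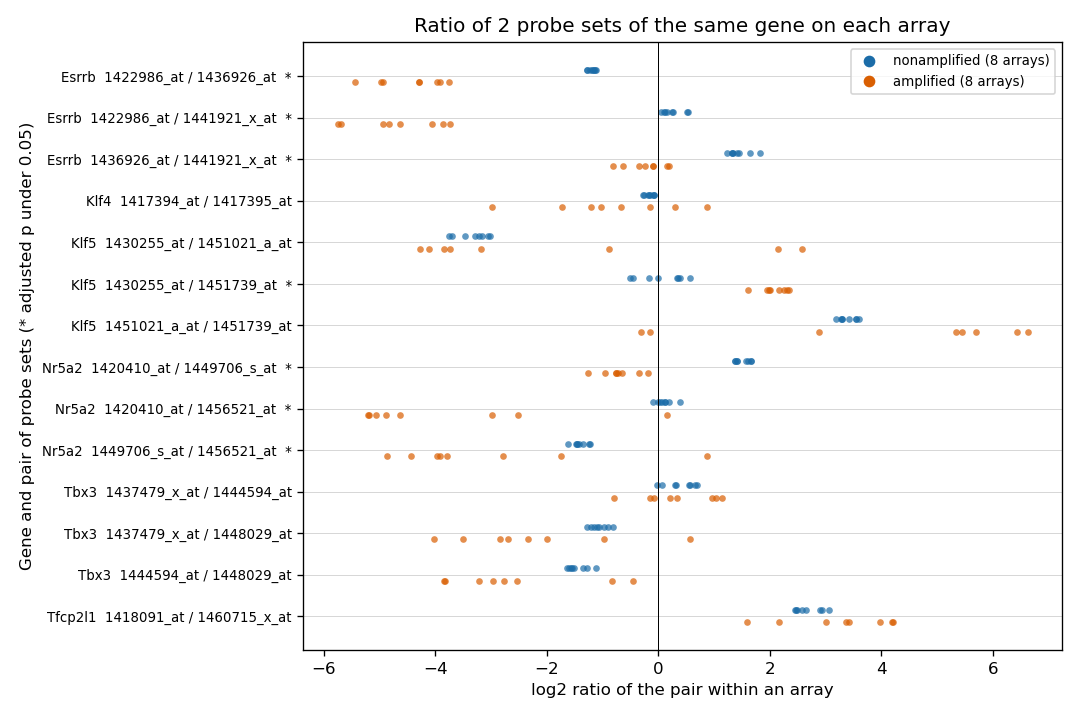
Log2 ratio of 2 probe sets of the same gene within each array for the 14 pairs, blue for nonamplified and orange for amplified; an asterisk marks an adjusted p under 0.05. Every ratio except Klf5 1430255_at over 1451739_at (SD 0.41, against 0.24 when amplified) is tighter on the nonamplified arrays. The 3 Esrrb pairs are among the 5 pairs without overlap between the groups.

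Whether probe sets of one gene rose and fell together over the 8 amplified arrays was tested for the same 14 pairs. Pearson's r passed in 2 of them. For Nr5a2 1420410_at and 1449706_s_at r was 0.94 (exact permutation p = 0.00161, adjusted p = 0.0226), and Spearman's rho was 0.88 (exact permutation p = 0.00724, adjusted p = 0.101). Without the 2 arrays on which 1420410_at lay farthest from its median r was 0.90, and without amplified replicate 5 alone it was 0.80 with an adjusted exact p of 0.200. On the amplified arrays 1420410_at read 41.5 or less except on replicate 5, so this r rests largely on dim values. For Esrrb 1422986_at and 1441921_x_at r was -0.88 (exact permutation p = 0.00454, adjusted p = 0.0318) and rho was -0.81 (exact permutation p = 0.0218, adjusted p = 0.152). Without the 2 arrays on which 1422986_at lay farthest from its median r was -0.88. The amplified values of 1422986_at lie near the table's floor, 5 of them under the 25th percentile of their arrays, where order is not reliable, so this r is a description only.

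No rank correlation passed after adjustment, and with 1 array left out 0 to 2 pairs passed by r, 0 of them without replicate 1, 3 or 5. In the other 12 pairs r ran from -0.32 to 0.26. The Klf4 pair had an r of 0.0020, and the 3 Klf5 pairs had -0.16, 0.26 and -0.13.

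As deposited, Klf2 had the largest positive difference among the member probe sets tested, while after quantile normalization that of Klf5 1430255_at was larger (0.79 against 0.03). The genes whose log2 values, centred per probe set, lay nearest to its own over the 16 arrays were Prkaca, Atg4b and Igfbp2, with root mean square differences of 0.20, 0.22 and 0.23. For Esrrb 1422986_at, which had the largest negative difference, they were Heatr1, Rest and Ddx39b (0.31, 0.33 and 0.36).

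The wider network was read through 1 probe set per gene, the one of the highest nonamplified mean. Choosing by the nonamplified arrays can favour lower values when amplified, so the counts of this and the later lists are descriptions. Over all probe sets tested, not chosen in this way, 24.7% were called higher and 32.8% lower. Of 27 core network and signalling genes tested, 3 were called higher and 14 lower, with a median log2 difference of -1.03, against 0 and 18 after quantile normalization and 0 and 16 on the hybridization controls. Ctnnb1 (β-catenin of the Wnt pathway) read 4292 ± 111 and, amplified, 5817 ± 409 (log2 difference 0.43, limma adjusted p = 2.78e-05), but was lower after quantile normalization (-0.40). Stat3, which carries the LIF signal, read 395 ± 14.9 and 29.5 ± 13.3 (-3.25, limma adjusted p = 4.61e-10). Smad1 of the BMP pathway was also lower (-2.94, limma adjusted p = 1.03e-05), as was Pou5f1 (-0.41, limma adjusted p = 0.000845), the latter not called under median centring or brighter 50% scaling.

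Of 27 target and marker genes of the naive state tested, 12 were higher and 6 lower, with a median of 0.17, but 6 were higher and 13 lower after quantile normalization, and 7 and 7 on the hybridization controls. Id1, a target of BMP signalling, read 683 ± 26.0 and 5858 ± 1492 (3.03, limma adjusted p = 1.42e-11). Nanog read 1776 ± 61.0 and 276 ± 79.5 (-2.66, limma adjusted p = 4.41e-11). Dppa5a and Tdgf1, bright markers of the undifferentiated state, were called higher as deposited (0.31 and 0.59) and lower after quantile normalization (-0.26 and -0.23).

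Among 33 tested relatives of the members from the same protein families, 5 were higher and 7 lower, with a median of -0.17, close to that of all probe sets. Klf11 and Klf6, further Krüppel-like factors, were lower (-3.06 and -2.76, limma adjusted p = 5.45e-07 and 5.24e-09). Klf9 (-0.19, limma adjusted p = 0.553) was not called, except as lower after quantile normalization (-1.03), and Yy1 was higher (0.58, limma adjusted p = 0.00369) but not called after quantile normalization or on the hybridization controls. With hybridization control scaling 0 of these relatives were higher and 12 lower, and under median centring 9 were higher and 4 lower.

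Markers of other states and cell types were read on the same arrays. Of 15 tested formative and primed epiblast genes 3 were higher and 6 lower (median -0.25). Among them Dnmt3b, a de novo DNA methyltransferase, rose by 1.24 and Mixl1 by 2.86 on the log2 scale, Sox4 fell by 3.19, and Nodal (0.16, limma adjusted p = 0.560) was not called, except as higher under median centring (0.56). The summed intensity of the 8 primitive endoderm markers was 436 to 637 on the amplified and 329 to 403 on the nonamplified arrays, with Gata6 (1.47) and Sox17 (0.33) higher and Pdgfra (0.0076) not called. Sox17 lost its call on the hybridization controls and with weights per group, and Pdgfra was called higher after quantile normalization (0.34) and median centring (0.42). That of the 8 trophoblast markers was 465 to 1781 and 806 to 1006, with Ascl2 higher (2.38), Krt18 lower (-1.89) and Tfap2c not called (-1.13).

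That of the 8 fibroblast feeder markers was 215 to 355 and 273 to 349, with Col1a2 (-0.80) and Dcn (-0.64, not called after quantile or median scaling) lower and Postn higher (1.01). Only 4, 6 and 4 of the 8 markers in these last 3 lists passed the filter. All arrays carry the same RNA, and the part of these markers in the members' values was not tested.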

How the data were processed

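Total RNA of one mouse ES cell preparation was hybridised as biotinylated cRNA to 16 arrays, made from PCR-amplified cDNA of 10 pg or from 5 µg RNA, per the labels. The authors deposited linear intensities, 1 for each probe set on each array, none of them under 1. Which software summarised the probes, and how arrays were scaled, is not given in the sources used here. Groups follow the sample titles. Gene names come from the supplied platform annotation, updated through the mouse RefSeq gene table of assembly GRCm38.p6.

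The 64 Affymetrix control probe sets were left out. Values were taken as log2(intensity + 16), which understates small signals' differences. A probe set whose mean log2 value was at or under the 40th percentile was not tested. The groups were compared 2-sided with limma 3.58.1 (lmFit, eBayes; R 4.3.3), with no covariate, over 27022 probe sets with Benjamini-Hochberg adjustment. The same fit on absolute deviations from group medians compared spread. Pairs of probe sets were compared by exact permutation over 12870 regroupings, with adjustment over all 14813 same-gene pairs, or 40320 pairings for correlations, adjusted over the members' 14 pairs (adjusting the ratio test over those 14, as first planned, called the same 7), in Python 3.11.15 with scipy 1.17.1. Scripts were tested on simulated data.

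All probe sets of the 10 members are named. From each of 7 gene lists the 2 brightest tested genes and the 2 with the largest absolute difference are named, with the 3 genes nearest to the extreme member probe sets. The members and lists were chosen with earlier results of these data known, so their directions are no independent evidence. Alternatives were other pseudocounts, scalings and filters, weights per group, a robust trend, the replicate number as a block, and each array left out. Scaling on hybridization controls, and leaving out arrays for spread and correlation, were added after seeing the data.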

Additional observations from a re-analysis of the deposited data

Results flagged for a closer look

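Among 48 groups of 8 arrays, 2 held a value whose gap to its nearest neighbour, as a share of the group's range, exceeded Dixon's 95% critical value. Chance flags about 5% of groups. Klf4 1417394_at on nonamplified replicate 7 was 805, the lowest of its group, with a gap of 0.60 of the range. Nr5a2 1420410_at on amplified replicate 5 was 163, the highest of its group, with a gap of 0.54 of the range.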

How the results depend on the processing

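Over all probe sets 15543 were called, 14412 to 16307 under other scalings, pseudocounts, weights and a robust trend, 22565 with no filter and 10148 under a filter at the 60th percentile, where fewer were tested. With 1 array left out 14816 to 15760 were called. The member counts called higher (4) and lower (10) became 1 higher after quantile normalization, 0 higher on the hybridization controls, and 6 lower with the 60th percentile filter, where only 16 were tested. Member probe sets called wider (8) numbered 5 with a pseudocount of 64, 5 after quantile normalization, and 1 to 5 with 1 array left out. Pairs with a shifted ratio (7) numbered 10 with a pseudocount of 1 and 16 without a filter, among more pairs. Pairs correlated by r (2) numbered 1 with a pseudocount of 64, 1 after quantile normalization, 1 without a filter, and 0 to 2 with 1 array left out.

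Signs turned for uncalled members: Prdm14 with a pseudocount of 1 (-0.22) and on the hybridization controls (-0.13), Nr5a2 1456521_at after quantile normalization (-0.19) and on the hybridization controls (-0.19), and Zfp42 in the same settings (-0.71 and -0.27). Klf4 1417395_at turned under median centring (0.38) and brighter 50% scaling (0.19). With 1 array left out Klf4 1417395_at ranged from -0.16 to 0.056 and Nr5a2 1456521_at from -0.020 to 0.84. The pair ratio of Tbx3 1437479_x_at to 1444594_at was 0.32 with a pseudocount of 1 and lay between -0.17 and 0.10 with 1 array left out. After quantile normalization the Klf5 1451021_a_at to 1451739_at and Tfcp2l1 ratios were -0.39 and -0.18. The cause was not tested.

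No pairing by replicate number was seen, as correlations of same-numbered deviations lay between -0.0078 and 0.018. For amplified replicates 1, 5 and 7 the nonamplified array of the same number was the closest match. The check cannot exclude a pairing, since the spread between amplified arrays could hide it. With the replicate number as a block 14856 probe sets and 14 member probe sets were called, and of the pairs the Nr5a2 1449706_s_at to 1456521_at ratio was no longer called (adjusted p = 0.0781), and of the named list genes Sox17 was not (adjusted p = 0.0503). Signal near the table's floor of 1 has no reliable order.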
